A study of Homo sapiens with 18 samples.

Results

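Decitabine and valproic acid given together were compared with control in U937 cells, an established human line with monocyte features that was derived from a histiocytic lymphoma. The comparison used 3 arrays of the combination and 3 arrays of control, 6 of the 18 arrays of the study, and covered every probe set that maps to 1 gene symbol: 16098 of 48226 probe sets, which stood for 14884 genes. Per the labels, the combination group received 3 pulses of decitabine of 24 h each, and valproic acid over the 24 h of the final pulse. In the labels stands the number 50 for decitabine and 1 for valproic acid, without a unit. They do not say what the control cells received. The groups given decitabine alone, valproic acid alone, and decitabine with panobinostat (number 8 in the labels, added over the same final 24 h) are used below as further references, with 3 arrays each. The spread of a gene was estimated from all 18 arrays of the 6 groups, which also include panobinostat alone. Whether replicate arrays stand for separate cultures is not in the labels, so the p-values measure the spread between replicate arrays, part of which may be technical. All samples come from a single cell line.

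Decitabine is a cytosine analogue that is built into DNA and traps DNA methyltransferases, so that methylation is lost as cells divide. Genes kept silent by promoter methylation in body cells, among them many germline genes, are known to be transcribed after such loss. Valproic acid is a short-chain fatty acid that inhibits histone deacetylases, the enzymes that remove acetyl groups from histones and other proteins, and acetylated histones mark transcribed chromatin.

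Levels are log2 signals, on which a step of 1 is a doubling, and changes are combination minus control on that scale with the standard error (SE) from limma, a linear model that shares information on the spread between genes. A gene is termed called where its p, adjusted by Benjamini-Hochberg, is under 0.05, and only called genes are said to have risen or fallen. The deposited values ran from 2.29 to 14.57. Control arrays correlated with each other across genes at 0.991 to 0.992, combination arrays at 0.985 to 0.989, and combination with control arrays at 0.966 to 0.978. Of 11 markers written down for U937, 7 were measured: MPO at 12.28 and CD4 at 9.74 were high in control, while the monocyte receptor CD14, at 3.45, was below the median of all values of 3.84 and was at 3.35 in the combination. The change of CD14 of -0.10 was not called, except at -0.26 with arrays shifted to the same median (adjusted p 0.0453). Of the defining markers of other cell types that were measured, those above 5 in control were the keratin KRT18 at 6.69 and NKG7, of T and NK cells, at 5.62. For B cells this check rests on 1 marker, PAX5 at 4.96, and the longer B cell list is described below.

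Replicate 1 of the combination stood apart. On the first principal component of all arrays, which held 34.2% of the variance, the controls lay at -33.3 to -35.9, and the combination arrays at 12, 23.9 and 30.6. Replicate 1 was the array nearest to the controls for 327 of the 503 genes that rose at least 2-fold (65%) and for 138 of the 211 that fell at least 2-fold (65.4%). The median change of those rising genes was 1.21 in replicate 1, 1.52 in replicate 2 and 1.61 in replicate 3. Counts of all genes called in a comparison are therefore given with and without this array, and those of gene lists wherever they differ without it. The cause was not tested.

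Of the 14884 genes, 2524 were called (17%), 1325 of them higher (8.9%) and 1199 lower (8.06%). Without combination replicate 1, 2547 were called, 1374 higher and 1173 lower, and 2167 of the calls were shared. The arrays of the groups did not overlap for 2464 of the called genes, against 31.7% of all genes tested. All called genes named below belong to these, except MNDA and CAPN6. The near balance of rises and falls depended on the kind of scaling. With quantile normalization of the genes tested it was kept, at 1325 higher and 1201 lower. Over all probe sets the array medians were 3.81 to 3.83 in control and 3.84 to 3.86 in the combination. Over the genes tested they were 4.54 in control and 4.68 to 4.72 in the combination. With each array shifted to the same median, the median change of all genes moved from -0.02 to -0.18, and the split became 930 higher and 2648 lower, or 26% higher in place of 52.5%.

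Large changes were mostly rises in the values as deposited, but less so among genes at high levels. Of the genes that changed at least 2-fold, 503 were higher (3.38%) and 211 lower (1.42%). Without combination replicate 1 these were 591 and 304. With the arrays shifted to the same median they were 364 and 407, so the excess of large rises was not kept under that scaling. With quantile normalization it was kept, at 454 and 222. The rising genes had control levels near those of all genes, with a median of 4.61 against 4.53, and a median of 6.48 in the combination. Of them 300 (59.6%) lay below 5 in control, beside 54.3% of all genes. The falling genes started higher, with a median of 7.84 in control and 6.41 in the combination, and 3 of the 211 (1.42%) lay below 5 in control. Protein-coding genes were called in 19.6% of cases, long noncoding RNAs in 8.01% and miRNA genes in 2.15%. These classes were not matched for level, and few genes at low levels were called, so the shares do not compare their response. The share of genes with a 2-fold rise was between 1.36% and 4.93% on every chromosome, and 4.44% on the X chromosome.

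**Figure D1:**
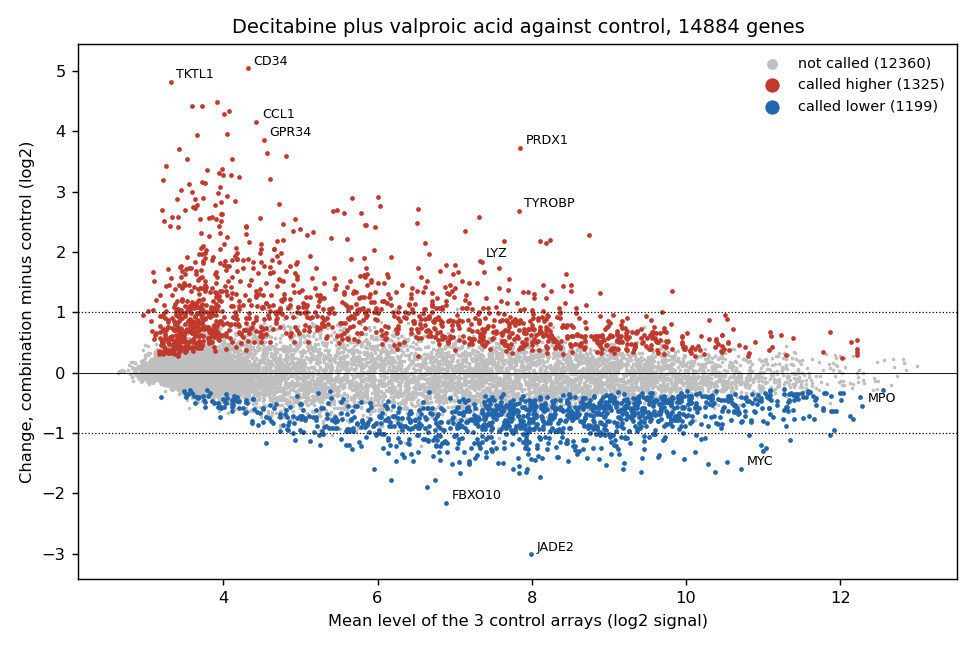
Change against control level for the 14884 genes tested. The horizontal axis is the mean log2 signal of the 3 control arrays and the vertical axis the log2 change, combination minus control; red points were called higher (1325), blue points lower (1199), grey points were not called, and dotted lines mark 2-fold. Of the 12 largest rises, all but PRDX1 start from control levels under 5, among them CD34 with a level of 4.32 and a change of 5.04. The largest falls, such as MYC with a change of -1.59, start from higher levels.

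The gene that rose most was CD34, whose product is the sialomucin that marks blood stem cells and their early progeny. Its level was 4.49, 4.16 and 4.31 in the control arrays and 9.44, 9.67 and 8.97 in the combination arrays. All combination arrays lay above all controls, by far more than either group's spread. The change was 5.04 (SE 0.28), or 32.9-fold, with an adjusted p of 8.05e-09 from limma. TKTL1, a transketolase-like gene of the X chromosome expressed in testis, had 3.13, 3.45 and 3.37 in control and 7.15, 8.28 and 8.99 in the combination. It changed by 4.82 (SE 0.34), or 28.3-fold, and its lowest combination array was replicate 1. MAEL, which acts in the silencing of transposons in germ cells, rose by 4.48 (SE 0.25), from 3.94, 4.02 and 3.81 to 8.57, 8.30 and 8.35.

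Loss of methylation acts on cytosines followed by guanine (CpG), so the 250 bases before the start sites of these genes are of interest. They are given here for the largest rises, CD34 and TKTL1, and for the largest fall, JADE2, with each CpG in capitals. Sequences are from RefSeq on GRCh38.p14, at the first start listed for each gene, 5′ to 3′ on the strand of the gene. Methylation itself was not measured.
CD34 (chr1:207911126-207911375, minus strand): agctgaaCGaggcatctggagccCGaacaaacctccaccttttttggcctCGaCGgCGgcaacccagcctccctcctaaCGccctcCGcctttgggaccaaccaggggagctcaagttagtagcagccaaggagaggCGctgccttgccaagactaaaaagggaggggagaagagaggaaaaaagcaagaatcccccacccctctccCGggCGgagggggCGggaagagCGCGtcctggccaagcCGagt
TKTL1 (chrX:154295545-154295794, plus strand): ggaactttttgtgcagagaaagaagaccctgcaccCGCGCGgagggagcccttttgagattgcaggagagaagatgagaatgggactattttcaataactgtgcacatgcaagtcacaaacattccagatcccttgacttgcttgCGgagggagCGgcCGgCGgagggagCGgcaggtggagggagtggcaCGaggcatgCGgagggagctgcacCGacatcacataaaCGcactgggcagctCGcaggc
JADE2 (chr5:134523759-134524008, plus strand): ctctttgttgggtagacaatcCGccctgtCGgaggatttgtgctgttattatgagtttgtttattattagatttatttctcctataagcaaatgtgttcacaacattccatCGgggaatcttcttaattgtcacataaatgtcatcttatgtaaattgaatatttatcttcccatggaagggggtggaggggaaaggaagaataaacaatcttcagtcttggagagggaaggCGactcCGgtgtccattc
In the full window of 250 bases before and 50 after the start, CD34 had 19 CpG, TKTL1 18 and JADE2 6. A window was matched for 9707 of 11916 protein-coding genes (81.5%), with a median of 23 CpG. The median was 22 for the genes that rose at least 2-fold and 26 for those that fell at least 2-fold. Among genes with a control level under 5 it was 16, and 19.5 for those of them that rose at least 2-fold. At a control level of 5 or more it was 27, and 25 for those that rose at least 2-fold. Whether CpG number goes with a rise was not tested.

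PRF1, the pore-forming protein perforin of cytotoxic lymphocytes, rose by 4.41 (SE 0.26) from 3.81, 3.48 and 3.53 to 7.20, 8.20 and 8.63. DCAF4L1 is a relative of a ubiquitin ligase adaptor. Its combination arrays lay close together at 8.47, 8.40 and 8.35 against controls at 3.78, 4.20 and 4.22, a change of 4.34 (SE 0.17) with an adjusted p of 1.44e-10. PRAC1, a small nuclear protein known from prostate and colon, rose by 4.28 (SE 0.25). The chemokine gene CCL1 rose by 4.15 (SE 0.20), from 4.20, 4.97 and 4.11 to 8.66, 8.55 and 8.52. GPR34, a receptor for lysophosphatidylserine, rose by 3.86 (SE 0.25), and IGF2BP1, an RNA-binding protein of fetal tissues, by 3.71 (SE 0.17).

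PRDX1 was the exception among these genes, because it was well measured in control. It encodes a peroxiredoxin, which reduces hydrogen peroxide. Its level rose from 8.07, 7.91 and 7.56 to 11.46, 11.67 and 11.56, a change of 3.72 (SE 0.16), or 13.1-fold. The last of the 12 largest rises were GCNA, a germ cell nuclear protein, at 3.63 (SE 0.21) and NPTX2, a neuronal pentraxin, at 3.59 (SE 0.32). The rule for naming these genes asked for arrays that do not overlap, so their separation in the plot of single arrays is no further result.

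**Figure D2:**
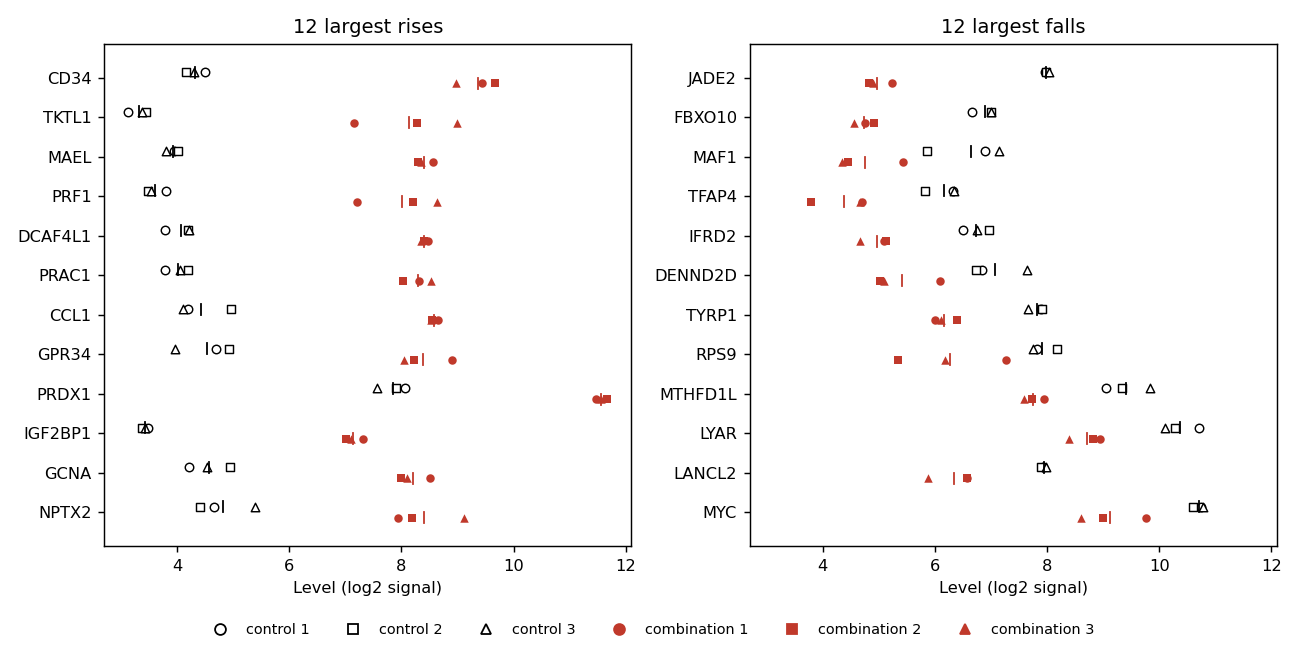
Levels on the single arrays for the 12 largest rises (left) and 12 largest falls (right) among called protein-coding genes. The horizontal axis is the log2 signal; open black symbols are control arrays, filled red symbols combination arrays, the shape gives the replicate number and short vertical lines are group means. CD34 lies at 4.16 to 4.49 in control and 8.97 to 9.67 in the combination, and JADE2 at 7.96 to 8.04 against 4.82 to 5.24.

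Falls were smaller. JADE2, a PHD finger protein of an acetyltransferase complex, stood at 7.96, 7.98 and 8.04 in control and at 5.24, 4.82 and 4.90 in the combination. The change was -3.01 (SE 0.20), or 8.06-fold lower, with an adjusted p of 3.66e-08. The next was FBXO10, an F-box protein, at -2.15 (SE 0.28). MAF1, a repressor of RNA polymerase III, had a change of -1.89 (SE 0.61) at an adjusted p of 0.0428. Its controls were at 6.90, 5.87 and 7.14, and the call was lost with any of 4 arrays left out. The adjusted p was 0.121 without control replicate 1, 0.146 without control replicate 3, 0.127 without combination replicate 2 and 0.142 without combination replicate 3, and 0.0627 with the replicate number as a block.

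Other large falls were in genes of several kinds. The transcription factor TFAP4 fell by 1.78 on the log2 scale (SE 0.33), IFRD2, a ribosome-binding protein, by 1.77 (SE 0.29), LYAR, a nucleolar protein, by 1.64 (SE 0.26), and MTHFD1L, which makes formate from folate intermediates in mitochondria, by 1.65 (SE 0.20). RPS9, a protein of the small ribosomal subunit, lay at 7.83, 8.18 and 7.76 in control and 7.27, 5.35 and 6.19 in the combination, a wide spread, with a change of -1.65 (SE 0.40). MYC, the transcription factor of growth and ribosome production, lay at 10.74, 10.61 and 10.79 in control. In the combination it was at 9.76, 9.0 and 8.60, highest in replicate 1, a change of -1.59 (SE 0.22) with an adjusted p of 0.000109. The remaining 3 of the 12 largest falls were DENND2D, an exchange factor for Rab proteins, at -1.66 (SE 0.33), the melanin synthesis enzyme TYRP1 at -1.66 (SE 0.16) and LANCL2, a LanC-like protein, at -1.60 (SE 0.29).

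The gene lists below were chosen with earlier results of these data known. A share above that of all genes is therefore a description and no test. The share of all genes is also not matched for level. Of the 4961 genes with mean levels of 6.57 to 13.13, 606 were called higher and 861 lower. Of the 4962 at 2.61 to 3.76, 99 were higher and 30 lower. For lists mostly at high levels, such as MYC and ribosome biogenesis, DNA replication, mitosis and cholesterol synthesis, 8.06% is a low reference for falls. Of 24 germline genes under promoter methylation, 12 were called higher (50%) and none lower, beside 8.9% and 8.06% of all genes, and 9 rose at least 2-fold. Their median change was 0.51, against -0.016 for all genes. With each array left out in turn, 12 or 13 were higher, and 13 without combination replicate 1. Beside TKTL1, MAEL and GCNA, HORMAD1, a protein of meiotic chromosome axes, rose from 3.95, 3.74 and 4.14 to 7.83, 7.19 and 6.72, by 3.30 (SE 0.25). DAZL, which binds mRNA during germ cell development, rose by 2.92 (SE 0.22) from 4.39, 4.0 and 3.75 to 7.33, 6.64 and 6.93. The other 12 members were not called, among them DDX4, a germ cell helicase, at -0.12 and the meiotic SYCP1 at 0.04.

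Cancer-testis antigens are normally made in testis and in tumours. Only 7 of the 25 members written down were measured. Of these 7, 2 were called higher (28.6%) and none lower, beside 8.9% and 8.06% of all genes. Without combination replicate 1, 3 were higher. PRAME, a substrate receptor of a ubiquitin ligase, rose by 2.64 (SE 0.23), from 5.89, 5.92 and 4.86 to 8.31, 8.12 and 8.16. CTAG1A (NY-ESO-1), whose probe sets cannot tell it from its copy CTAG1B, rose by 1.41 (SE 0.26). Of 11 imprinted genes, whose parental copies differ in methylation, 2 were higher (18.2%) and 1 lower (9.09%), and 3 and 0 without combination replicate 1. PEG10, a gene derived from a retrotransposon, rose by 2.84 (SE 0.18) from 4.09, 4.10 and 4.25 to 6.63, 7.18 and 7.14. KCNQ1OT1, a long noncoding RNA, rose by 0.50 (SE 0.10, and an adjusted p of 0.0539 with a trend in the spread), and PLAGL1, a zinc finger protein, fell by 0.60 (SE 0.17), a call lost without control replicate 1 (adjusted p 0.0856) and without combination replicate 1 (0.0713). The median of the imprinted genes was 0.09 and turned to -0.07 with arrays shifted to the same median.

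Of 18 stem and progenitor genes, 7 rose and 1 fell, with a median of 0.31, beside 8.9% and 8.06% of all genes, with 6 and 1 without combination replicate 1 and 5 or 6 of them higher with any single array left out. Next to CD34, GATA2, a transcription factor of blood stem cells, rose by 2.75 (SE 0.24), from 3.17, 3.61 and 4.06 to 6.73, 5.81 and 6.56. PROM1, the surface protein CD133, rose by 1.22 (SE 0.17). RUNX1, a transcription factor of definitive blood formation, rose by 1.18 (SE 0.35), but its control arrays spread from 5.61 to 6.81. That call was lost without control replicate 1 (adjusted p 0.128), control replicate 2 (0.109), combination replicate 2 (0.0947) or combination replicate 3 (0.0734). ERG, of the ETS family, rose by 0.94 (SE 0.25), and was not called without control replicate 1 (0.0584) or combination replicate 1 (0.0513). KIT, the stem cell factor receptor, changed by -0.22 and FLT3, a receptor of early progenitors, by 0.03, neither called.

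Of 25 monocyte and macrophage markers, 7 rose (28%) and 1 fell (4%), beside 8.9% and 8.06% of all genes. Without combination replicate 1 these were 8 and 2. The list had a median of 0.15 that turned to -0.01 with arrays shifted to the same median, under which 7 were higher and 5 lower. TYROBP, a signaling adaptor of myeloid receptors, rose from 7.97, 7.67 and 7.86 to 10.64, 10.64 and 10.26, by 2.68 (SE 0.17). CD86, a ligand that costimulates T cells, rose by 2.28 (SE 0.18), and CSF1R, the receptor for macrophage growth factor, by 2.16 (SE 0.30), from 4.66, 4.20 and 4.15 to 6.65, 6.88 and 5.96. TREM1, which amplifies inflammatory signals, rose by 2.03 (SE 0.18) and lysozyme, LYZ, by 1.85 (SE 0.19), though a weaker probe set of LYZ gave 0.58. The transcription factors SPI1 (PU.1) at -0.57 (adjusted p 0.104) and IRF8 at 0.37 (adjusted p 0.292) were not called. The change of SPI1 was -0.90 without combination replicate 1 (adjusted p 0.00296) and -0.73 with arrays shifted to the same median (0.0315), both called, and -0.26 without combination replicate 3 (0.469). These RNA levels cannot tell more transcript per cell from a larger share of cells of one kind.

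Granulocyte genes had 1 of 17 called higher (5.88%) and 3 lower (17.6%), beside 8.9% and 8.06% of all genes. CXCR2, a receptor for neutrophil chemokines, fell by 1.12 (SE 0.31), CSF3R, the G-CSF receptor, by 0.76 (SE 0.22), and MPO, myeloperoxidase, by 0.55 (SE 0.14), from 12.31, 12.23 and 12.30 to 12.07, 11.68 and 11.43. PRTN3, the granule protease proteinase 3, rose by 0.96 (SE 0.28). None of these 4 kept its call over all leave-one-out fits. Without combination replicate 3 no granulocyte gene was called lower, and without control replicate 2 or 3 none was higher. The adjusted p without combination replicate 3 was 0.0676 for CXCR2, 0.125 for CSF3R and 0.0691 for MPO, and that of PRTN3 without combination replicate 1 was 0.11.

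Among 17 markers of T and NK cells, 7 rose (41.2%) and none fell (median 0.39), beside 8.9% and 8.06% of all genes, 7 also without combination replicate 1. The membrane adaptor LAT rose by 2.06 (SE 0.21) from 4.28, 3.80 and 4.44 to 5.97, 6.00 and 6.72, the adhesion receptor CD2 by 2.04 (SE 0.22), the kinase LCK by 1.71 (SE 0.19) and the transcription factor GATA3 by 1.06 (SE 0.24). Of the 4 measured defining markers of these cells, CD2 went from 3.96 to 6.01 and was called, while CD8A at 4.59 and 4.98, GNLY at 3.98 and 3.74, and NKG7 at 5.62 and 5.99 were not. Of 11 B cell markers, 3 were higher (27.3%) and none lower (median 0.01, but -0.15 with arrays shifted to the same median and -0.02 with quantile normalization). CD22, a lectin that dampens B cell receptor signals, rose by 2.69 (SE 0.26) from 5.24, 5.56 and 5.62 to 7.40, 8.42 and 8.67. CD24, a small surface protein, rose by 2.38 (SE 0.14), and EBF1, a B lineage transcription factor, by 1.58 (SE 0.30), while PAX5 changed by 0.11.

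Of 28 measured genes of the type I interferon response, 12 were called higher (42.9%) and none lower, beside 8.9% and 8.06% of all genes, 8 of them at least 2-fold, with a median of 0.51. Leaving out each array in turn gave 11 to 13, with 13 without combination replicate 1. IFIT5, which binds viral RNA, rose by 2.65 (SE 0.35), from 5.08, 6.66 and 5.63 to 8.28, 8.84 and 8.19. IRF9, the DNA-binding subunit of the interferon-activated factor, rose by 1.53 (SE 0.30) and IFI44L by 1.53 (SE 0.26), from 3.56, 3.58 and 3.87 to 5.18, 4.96 and 5.46. SAMD9L, an antiviral and growth-restraining protein, rose by 1.36 (SE 0.18), and IRF7, a factor that amplifies interferon production, by 1.18 (SE 0.26). Other well-known members did not pass: ISG15 was at 0.72 with an adjusted p of 0.0568, IFIT1 at 0.16, RSAD2 at 0.03, MX2 at -0.17 and BST2 at -0.15.

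Many interferon-responsive promoters hold the interferon-stimulated response element, to which complexes with IRF9 bind. Its core, GAAA, then NN (any bases), then GAAA, read on either strand, was in the window of 14 of the 21 list members with a promoter entry (66.7%), against 2.89% of all protein-coding genes tested. Windows of 30 bases around the match nearest to the start are given for called members, IFIT5 and IFI44L, and for members that were not called, DDX60 and BST2, which were chosen after their values were seen. Sequences are from RefSeq on GRCh38.p14 on the strand of the gene, with the match in capitals. In IFIT5 the match is on the opposite strand.
IFIT5 (chr10:89414538-89414567, plus strand): cttacgtttagTTTCGATTTCttaagtttc
IFI44L (chr1:78620365-78620394, plus strand): tcctagtgagGAAAAAGAAAgttagtggca
DDX60 (chr4:168318786-168318815, minus strand): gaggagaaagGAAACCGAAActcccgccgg
BST2 (chr19:17405741-17405770, minus strand): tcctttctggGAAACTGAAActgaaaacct
Of the 14 members with a match, 8 were called higher, and of the 7 without a match, 3. DDX60 changed by 0.02 and BST2 by -0.15. Both were picked as members that were not called, so they say nothing on how often a match goes with a rise.

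Of 17 sensors of double-stranded RNA and DNA and their adaptors, 2 were higher (11.8%) and 1 lower (5.88%), near the 8.9% and 8.06% of all genes. Without combination replicate 1 there was 1 each way. RIGI, which senses viral RNA, rose by 1.37 (SE 0.16), from 7.34, 7.97 and 7.76 to 9.02, 8.95 and 9.20. IFIH1 (MDA5), a sensor of long double-stranded RNA, rose by 0.74 (SE 0.20), a call lost without combination replicate 1 (adjusted p 0.0618) or 3 (0.0825). The DNA sensor CGAS fell by 0.48 (SE 0.12), and was not called without control replicate 2 (0.0595). The median of the list, 0.14, turned to -0.02 with arrays shifted to the same median. Among 6 measured genes of MHC class I presentation, of 21 written down, 1 rose and 1 fell (16.7% each). The peptide-trimming ERAP1 rose by 0.73 and ERAP2 fell by 0.42, and 0 were higher and 2 lower without combination replicate 1. Both calls were lost with single arrays left out, ERAP1 without combination replicate 1 (0.0627) and ERAP2 without control replicate 2 (0.116), among others.

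In the list of NF-kB factors and inflammatory cytokines, 5 of 22 rose (22.7%) and 1 fell (4.55%), beside 8.9% and 8.06% of all genes. Without combination replicate 1 these were 4 and 2. The median of 0.12 turned to -0.04 with arrays shifted to the same median. CXCL11, a chemokine for T cells, rose by 2.99 (SE 0.31), from 3.38, 3.86 and 3.56 to 6.00, 6.73 and 7.04, while the related CXCL10 changed by 0.01. PTGS2, the inducible cyclooxygenase, rose by 2.41 (SE 0.28), from 4.25, 4.37 and 4.26 to 6.30, 7.21 and 6.60. The monocyte chemokine CCL2 rose by 0.94 (SE 0.27), but not without control replicate 3 (adjusted p 0.0993), combination replicate 1 (0.108) or combination replicate 2 (0.0733). NFKB1, a precursor subunit of the factor, fell by 0.76 (SE 0.16), with an adjusted p of 0.0535 in a fit of the 6 arrays alone.

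Of 19 measured genes of MYC and ribosome biogenesis, 13 were called lower (68.4%) and none higher, beside 8.06% lower among all genes, and 10 fell at least 2-fold. Their median change was -1.0. Over the leave-one-out fits 12 to 14 were lower, and 14 without combination replicate 1. After TFAP4 and MYC, RRS1, a ribosome assembly factor, fell by 1.41 (SE 0.23), from 7.73, 7.60 and 8.12 to 6.96, 6.27 and 5.98. The nucleolar protein nucleolin, NCL, fell by 1.36 (SE 0.29), from 9.71, 9.79 and 9.45 to 9.02, 8.10 and 7.74. In both genes combination replicate 1 was the highest of the treated arrays. NOP16, a nucleolar protein, fell by 1.34 (SE 0.33). The highest change in the list was -0.16, for ODC1, the first enzyme of polyamine synthesis, which was not called.

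Of 27 ribosomal proteins written down, 12 were measured. Of these 12, 6 fell (50%) and none rose (median -0.65), beside 8.06% and 8.9% of all genes. RPS14 fell by 1.29 (SE 0.21), from 8.68, 8.43 and 8.72 to 7.62, 7.45 and 6.89, RPS7 by 1.17 (SE 0.28) and RPS24 by 0.97 (SE 0.19). Calls of RPL30 (-0.89) and RPS3 (-0.65) were weaker, and the count was 3 without control replicate 2, control replicate 3 or combination replicate 3. RPL19 at 0.13 and RPS19 at 0.05 were not called. Ribosomal protein genes have many processed copies, so that probes may also read those.

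The E-box CACGTG is the sequence bound by MYC with its partner MAX, and by other factors of that family. Genes that fell at least 2-fold held it more often in their promoter window: 42 of 172 protein-coding genes with an entry (24.4%), against 883 of 9707 tested (9.1%) and 6.37% of the genes that rose at least 2-fold. With any listed start counted, the shares were 27.9% and 11.3%. The motif reads the same on both strands. Among genes with a control level of 5 or more, 10.6% held it. Of the 573 with the motif 25.5% were called lower, and of the 4816 without it 15.9%. No test was made of this difference. For the named genes that fell at least 2-fold and hold it before the start, 30 bases around the match, in capitals, are given from RefSeq on GRCh38.p14 on the strand of the gene.
MTHFD1L (chr6:150866320-150866349, plus strand): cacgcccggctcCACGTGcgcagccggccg
HSPD1 (chr2:197500345-197500374, minus strand): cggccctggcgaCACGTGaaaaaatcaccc
QTRT1 (chr19:10701382-10701411, plus strand): ggatcgcgtggtCACGTGacagcggccaac
MTHFD1L is the folate enzyme named above, HSPD1 is the mitochondrial chaperonin, which fell by 1.43 (SE 0.18), and QTRT1 is a subunit of the enzyme that puts queuine into tRNA, which fell by 1.31 (SE 0.32) and was not called without combination replicate 2 (adjusted p 0.0513). Most genes with the motif were not called, and binding was not measured.

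**Figure D3:**
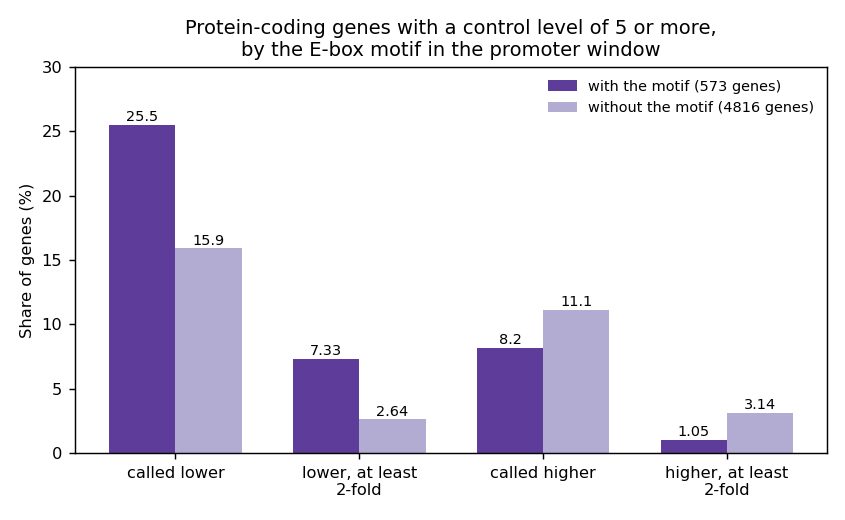
Share of protein-coding genes called in the combination against control, for genes with and without the E-box motif of 6 bases in the window of 250 bases before and 50 after the start, among genes with a control level of 5 or more. Bars give percent of genes; with the motif 25.5% of 573 genes were called lower and without it 15.9% of 4816, while 8.2% and 11.1% were called higher.

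In the list of serine, folate and one-carbon metabolism, 8 of 14 measured members fell (57.1%), MTHFD1L among them, and 1 rose (median -0.48), beside 8.06% and 8.9% of all genes, and 9 and 2 without combination replicate 1. SFXN1, a mitochondrial serine carrier, fell by 0.94 (SE 0.20), PSAT1, of serine synthesis, by 0.89 (SE 0.11), from 11.28, 11.21 and 11.40 to 10.40, 10.35 and 10.45, and ATIC, of purine synthesis, by 0.73 (SE 0.12). PHGDH, the first enzyme of serine synthesis, was at -0.43 (SE 0.13), with an adjusted p of 0.0278. Its call was lost without control replicate 1 (0.0874), 2 (0.0638) or 3 (0.0564), and without combination replicate 2 (0.125). GLDC, which splits glycine, was the member that rose, by 1.69 (SE 0.19), from 4.25, 4.33 and 3.96 to 5.35, 6.14 and 6.11. The serine hydroxymethyltransferases SHMT1 at 0.25 and SHMT2 at -0.53 and the purine enzyme PPAT at -0.28 were not called. Of 17 cholesterol synthesis genes 2 fell (11.8%), beside 8.06% of all genes, and none rose (median -0.28). Most of them lay at high levels, where falls were more frequent than among all genes, so this share shows no excess. They were mevalonate kinase, MVK, at -0.78 (SE 0.18) and HMGCS1 at -0.37 (SE 0.12). HMGCS1 was not called without control replicate 1 (0.107) or 2 (0.138), or without combination replicate 2 (0.128) or 3 (0.167).

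DNA replication genes had 7 of 20 called lower (35%) and none higher (median -0.30), beside 8.06% and 8.9% of all genes. All 20 had control levels of 7.04 or more. Falls were more frequent at high levels than among all genes, so the 8.06% overstates the excess of this list. This count moved most with single arrays: it was 8 without combination replicate 1 and 1 without combination replicate 3, and 15 with arrays shifted to the same median. TYMS, thymidylate synthase, fell by 0.64 (SE 0.16), from 11.88, 11.99 and 11.96 to 11.72, 11.35 and 10.85, and kept its call in the leave-one-out fits, but not in a fit of the 6 arrays alone (adjusted p 0.0914). DUT, which removes dUTP, at -0.90, GINS3, a helicase subunit, at -0.77, MCM5, of the replicative helicase, at -0.68 and CDC6, a licensing factor, at -0.56 lost theirs without combination replicate 3, with adjusted p of 0.128, 0.0623, 0.089 and 0.0867. PCNA, the sliding clamp, was at -0.18 and not called.

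Of 30 genes of G2 and mitosis, 1 rose and 2 fell, beside 17% called among all genes, with a median of 0.07 that turned to -0.09 with arrays shifted to the same median. They were NEK2, a centrosome kinase (0.60), MAD2L1, of the spindle checkpoint (-0.65), and CKS1B, a subunit of cyclin-dependent kinases (-0.55). NEK2 and MAD2L1 were not called without control replicate 1 (0.135 and 0.103) or combination replicate 3 (0.207 and 0.0813). NEK2 was also not called without control replicate 2 (0.132) or combination replicate 2 (0.0673). CKS1B was not called without control replicate 2 (0.0705), control replicate 3 (0.0858) or combination replicate 3 (0.0833). Of 27 cell cycle inhibitors and p53 targets written down, 11 were measured. Among them TP53INP1, an autophagy and stress protein, rose by 2.42 (SE 0.39), from 3.58, 3.37 and 3.26 to 5.59, 5.45 and 6.43. AEN, a nuclease induced by p53, fell by 1.10 (SE 0.24). Thus 1 of this list was higher and 1 lower (9.09% each), near the 8.9% and 8.06% of all genes. Without combination replicate 1 these were 1 and 2.

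Enzymes that the agents act on, or that act on decitabine, were looked at as a fixed panel with myeloid regulators. DNMT3B, a methyltransferase of new methylation, rose by 1.40 (SE 0.19), from 6.70, 6.93 and 7.36 to 8.24, 8.51 and 8.44. DNMT1, which copies methylation, was at -0.08 (adjusted p 0.708) and DNMT3A at 0.17 (0.824), neither called, and the sign of each turned under an alternative, to 0.03 for DNMT1 with quantile normalization and to -0.12 for DNMT3A without combination replicate 1. TDG, a glycosylase of active demethylation, fell by 0.45 (SE 0.14), a call lost with any of 4 arrays left out (highest adjusted p 0.199, without combination replicate 3). CDA, cytidine deaminase, which inactivates decitabine, rose from 7.29, 6.99 and 7.13 to 8.34, 8.48 and 8.23, by 1.21 (SE 0.18). DCK, which phosphorylates decitabine to its active form, was at -0.37 (SE 0.20), with an adjusted p of 0.263.

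The class I deacetylases, which valproic acid inhibits, were not called: HDAC1 at 0.22, HDAC2 at -0.36, HDAC3 at 0.07 and HDAC8 at -0.24, with adjusted p of 0.168, 0.276, 0.807 and 0.387. HDAC1 was called at 0.32 with quantile normalization (adjusted p 0.0422), and a weaker probe set of HDAC2 gave -0.30 (0.037), a call. The sign of HDAC3 turned to -0.09 with arrays shifted to the same median and to -0.01 without control replicate 3. Of 25 deacetylases and acetyltransferases, 4 rose (16%) and 3 fell (12%), beside 8.9% and 8.06% of all genes. HDAC11, the class IV enzyme, rose by 0.89 (SE 0.16), from 4.33, 4.21 and 4.0 to 4.61, 5.33 and 5.29, and the class IIa enzyme HDAC5 by 0.74 (SE 0.18). HDAC9, of the same class, rose by 0.99 (SE 0.27), but not without control replicate 3 (adjusted p 0.0746) or combination replicate 3 (0.1). HDAC4 fell by 1.03 (SE 0.21) in the probe set used, while its weaker probe set gave -0.03. The acetyltransferase KAT2A fell by 0.92 (SE 0.15), from 8.65, 8.55 and 9.0 to 8.07, 7.72 and 7.64. The median of the list was 0.03 and took the opposite sign with arrays shifted to the same median (-0.13) and with quantile normalization (-0.01).

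Of 20 lysosome genes, 8 rose (40%) and 1 fell (5%) (median 0.34), beside 8.9% and 8.06% of all genes. The counts were the same without combination replicate 1, and 5 and 1 with arrays shifted to the same median. GRN, the precursor of granulins, rose by 1.32 (SE 0.22), from 8.89, 8.79 and 8.96 to 9.70, 10.20 and 10.69. PSAP, the precursor of saposins, rose by 1.01 (SE 0.15), the protease cathepsin D, CTSD, by 0.96 (SE 0.12), the sialidase NEU1 by 0.95 (SE 0.18) and acid ceramidase, ASAH1, by 0.59 (SE 0.11). Of 10 metallothioneins, which bind metal ions, 4 rose (40%) and none fell (median 0.29). MT1H rose by 2.20 (SE 0.17), MT1E by 1.59 (SE 0.32), MT1F by 0.91 (SE 0.16) and MT1X by 0.54 (SE 0.12). These genes are close copies, which the probes may not tell apart. MT1H went from 4.80, 4.72 and 4.81 to 6.94, 6.63 and 7.36.

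Heat shock chaperones, with 9 of 21 measured, changed both ways, 3 of 9 higher and 3 lower (33.3% each), beside 8.9% and 8.06% of all genes. Those that rose were BAG3, a cochaperone of HSP70, by 1.76 (SE 0.24), HSPA1A, an inducible HSP70 that its probe sets do not tell from its copies, by 1.35 (SE 0.29), and the small chaperone HSPB1 by 0.73 (SE 0.14). Those that fell most were HSPD1, from 9.79, 10.07 and 10.05 to 8.93, 8.37 and 8.31, and HSPH1, an exchange factor of HSP70, by 0.72 (SE 0.13). The unfolded protein and stress response list had 2 of 15 members higher and 2 lower (13.3% each), near the 8.9% and 8.06% of all genes. Without combination replicate 1 these were 2 and 3. Higher were the transcription factor ATF3 at 1.07 (SE 0.18) and the sensor ERN1 (IRE1) at 0.91 (SE 0.23), and lower PSAT1 and PHGDH. ERN1 was not called without control replicate 3 (0.0586) or combination replicate 2 (0.0697). Of 18 BCL2 family and death receptor genes, 4 rose (22.2%) and 1 fell (5.56%) (median 0.07, and -0.09 with arrays shifted to the same median). The proapoptotic BIK rose by 2.34 (SE 0.39), from 4.38, 5.88 and 4.45 to 6.97, 7.44 and 7.31, the effector BAK1 by 0.87 (SE 0.14) and APAF1, of the apoptosome, by 0.69 (SE 0.09), while the survival gene BCL2 fell by 0.45 (SE 0.10, and an adjusted p of 0.055 in a fit of the 6 arrays alone). BCL2A1, another survival gene, rose by 0.71 (SE 0.19), but not without control replicate 3 (0.0804).

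Among the remaining lists, 5 of 19 epithelial and stromal markers rose (26.3%) and none fell, beside 8.9% and 8.06% of all genes. The count was 4 in each fit with an array left out, combination replicate 1 included, and 3 with arrays shifted to the same median. VIM, the intermediate filament vimentin, rose by 2.48 (SE 0.16) in the strongest probe set and by 0.30 and 0.67, not called, in others, and the endothelial and leukocyte adhesion protein PECAM1 by 1.52 (SE 0.18). The keratin KRT18 was at -0.13 and not called. The matrix genes LUM and FN1 and the claudin CLDN7 rose by 0.88, 0.59 and 0.98 from control levels of 3.28, 3.47 and 3.67. FN1 was not called without combination replicate 3 (0.0782), nor LUM in a fit of the 6 arrays alone (0.0727). CLDN7 was not called without control replicate 1 (0.103), 2 (0.0642) or 3 (0.11), or without combination replicate 1 (0.0589) or 2 (0.196). Of 8 measured short-chain and alcohol dehydrogenases and detoxification genes, from 21 written down, 3 rose (37.5%). DHRS2 rose by 3.35 (SE 0.43), heme oxygenase HMOX1 by 1.09 (SE 0.17) and DHRS7 by 0.45 (SE 0.14). DHRS7 was not called without combination replicate 1 (0.127), which left 2 higher. Its call was also lost without control replicate 1 (0.112), 2 (0.0801) or 3 (0.0696), and without combination replicate 2 (0.0801). Among 5 measured erythroid genes, of 18 written down, the erythropoietin receptor EPOR rose (20% of those measured). Its change was 0.93 (SE 0.20, and an adjusted p of 0.0505 in a fit of the 6 arrays alone). Of 8 megakaryocyte and platelet genes only the chemokine PPBP rose (12.5%), by 0.51. Of 14 neuronal genes only CPLX2, a regulator of vesicle release, fell (7.14%), by 0.45. Both shares are near those of all genes. Neither gene kept its call over all leave-one-out fits (highest adjusted p 0.129 and 0.174, both without combination replicate 2). The MHC class II list had 1 measured member, which was not called.

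**Figure D4:**
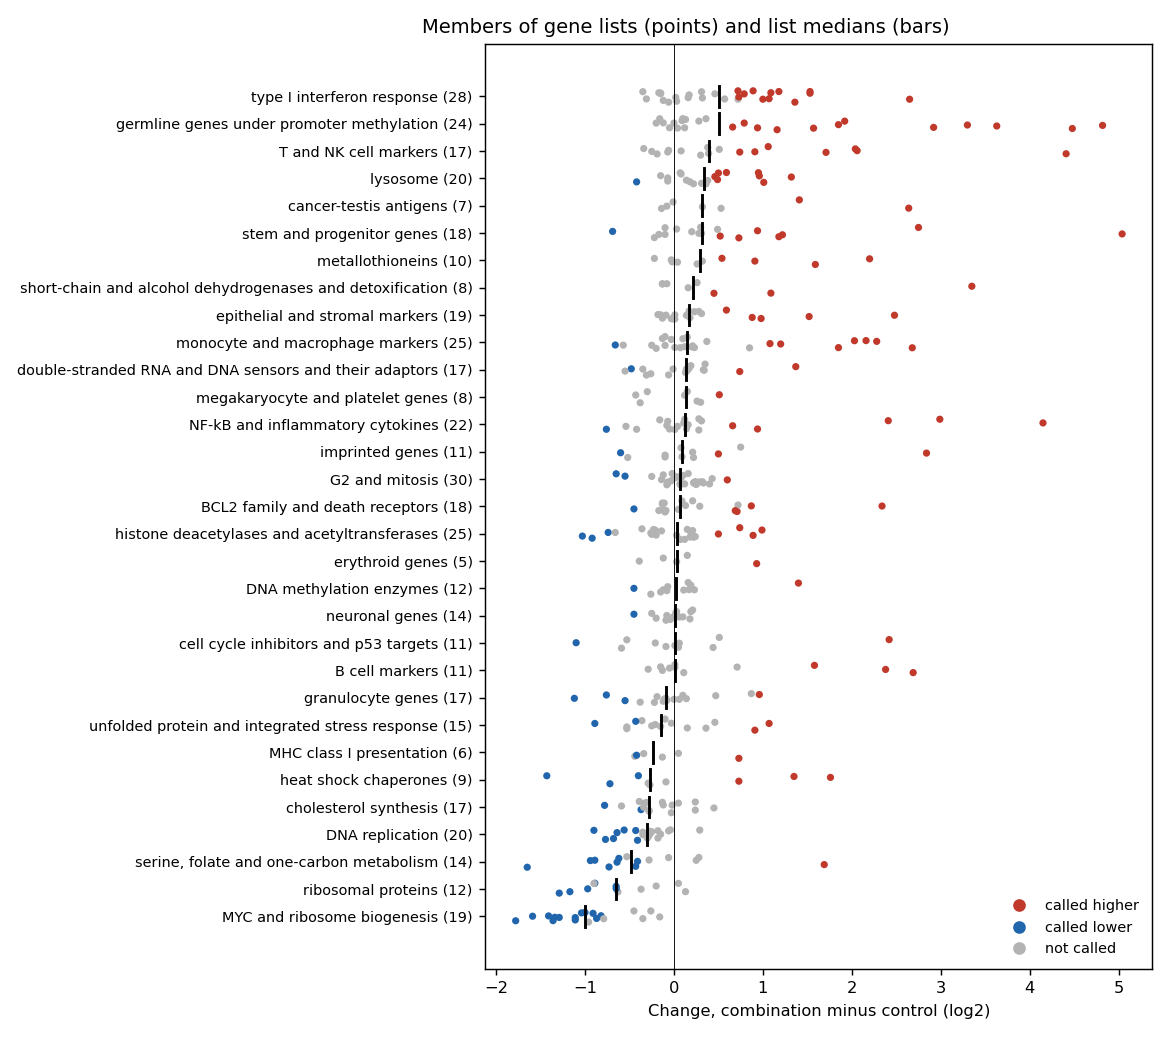
Changes of the measured members of gene lists with 5 or more measured members, combination minus control on the log2 scale (horizontal axis). Each point is a gene, red if called higher, blue if called lower and grey if not called, the black bar is the median of the list and the number of measured members is in parentheses. The medians run from -1.0 for MYC and ribosome biogenesis to 0.51 for type I interferon response and germline genes.

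Against decitabine alone, the combination differed in 913 genes (6.13%), 531 higher and 382 lower, and against valproic acid alone in 600 (4.03%), 391 higher and 209 lower. These comparisons share the combination arrays with the comparison with control. Of the 1325 genes that rose against control, 413 were also higher than with decitabine and 345 than with valproic acid. Of the 1199 that fell, 291 were lower than with decitabine and 124 than with valproic acid. Rises past both agents numbered 117 and falls past both 38. These counts past 1 or both agents are given with all arrays only. The counts of all genes called against each agent rested on single arrays and on the other groups in the fit. Against decitabine the count was 1227 without combination replicate 1, 376 without combination replicate 2, 360 without combination replicate 3, 520, 563 and 443 without decitabine replicate 1, 2 or 3, and 177 in a fit of the 6 arrays. Against valproic acid it was 565 without combination replicate 1, 381 without valproic acid replicate 2, 371 without valproic acid replicate 3 and 261 in a fit of the 6 arrays.

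The largest upward differences from decitabine were in genes that decitabine alone left near control. CD22 was at 5.47 in control, 5.58 with decitabine, 8.63 with valproic acid and 8.16 with both, a difference from decitabine of 2.58 (SE 0.26, adjusted p 0.000123). The metalloprotease ADAM28 was at 3.64, 4.32, 6.59 and 6.52 in the same order, and differed from decitabine by 2.20 (SE 0.21). ENPP2, autotaxin, which makes lysophosphatidic acid, was at 3.66, 3.89, 5.89 and 6.44. For these 3 genes the level with both agents did not differ from that with valproic acid by a called amount.

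DHRS2, a dehydrogenase, TJP3, a tight junction protein, and STC1, the hormone stanniocalcin, were higher with both agents than with either. DHRS2 was at 3.79 in control, 4.12 with decitabine and 5.29 with valproic acid. With both it was at 5.62, 7.57 and 8.22, lowest in replicate 1, and differed by 3.02 from decitabine (SE 0.43, adjusted p 0.0011) and by 1.85 from valproic acid (adjusted p 0.024). TJP3 was at 3.97, 4.09 and 5.26 in the single groups and at 6.04, 6.40 and 7.35 with both. STC1 was at 3.70 in control, 3.83 with decitabine and 3.50 with valproic acid, and at 4.61, 6.44 and 7.66 with both, a wide spread with replicate 1 lowest. In fits of the 6 arrays alone, the difference from decitabine was not called for DHRS2 (adjusted p 0.0579), ENPP2 (0.0544) and STC1 (0.113).

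Lower than with decitabine alone were JADE2 at -2.5 (SE 0.20), PRTN3, ACY3, MAF1, QTRT1 and MNDA. PRTN3 was at 4.58 in control, 7.62 with decitabine, 3.74 with valproic acid and 5.54 with both, so the level with both lay between those of the agents, at -2.08 from decitabine (adjusted p 0.00079) and 1.80 from valproic acid (0.000909). ACY3, an aminoacylase, was at 5.43, 8.45, 5.44 and 6.99 in that order. JADE2 was at 7.99, 7.48, 6.25 and 4.98. MNDA, an interferon-inducible nuclear protein of myeloid cells, was at 7.08, 6.14 and 4.84 on the combination arrays and 7.47, 7.05 and 7.72 on the controls, and these overlap. Its difference from decitabine of -1.40 was not called without combination replicate 3 (adjusted p 0.13), nor that of MAF1 (0.139), nor that of QTRT1 without combination replicate 2 (0.0787). Over the 12 genes named against decitabine, 9 kept their call in every leave-one-out fit and 6 were called in a fit of the 6 arrays alone, where ACY3 (0.085), QTRT1 (0.0522) and MNDA (0.203) were not.

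Against valproic acid alone, the largest differences were the genes that rose most against control: TKTL1 by 4.96 (SE 0.34), DCAF4L1 by 4.78, MAEL by 4.76, PRAC1 by 4.50, GCNA by 4.09 and CD34 by 4.08. With valproic acid alone CD34 was at 5.28, and TKTL1 at 3.18, near its control mean of 3.32. With decitabine alone these 2 genes were at 9.05 and 7.09, and their differences from decitabine of 0.31 and 1.05 were not called. MAEL at 7.46 and DCAF4L1 at 7.74 with decitabine were below the combination by 0.94 (adjusted p 0.0333) and 0.67 (0.0266).

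CAPN6, a calpain-like protein, had the largest negative difference from valproic acid. It was at 4.21 in control, 4.16 with decitabine, 7.18 with valproic acid and 5.31 with both, a difference from valproic acid of -1.87 (SE 0.29, adjusted p 0.001). Its rise of 1.11 against control had overlapping arrays, 4.68, 4.03 and 3.91 against 4.64, 5.65 and 5.66, and an adjusted p that reached 0.073 without combination replicate 3. TYRP1, the calcium release channel RYR2, the adhesion protein OPCML and the egg coat protein ZP3 were lower with both agents than with valproic acid, by 1.76 to 1.40 on the log2 scale. RYR2 was at 5.95 in control, 4.24 with decitabine, 5.94 with valproic acid and 4.36 with both, and ZP3 at 7.03, 5.76, 7.18 and 5.78. MNDA was the last of these, at -1.41, and was not called without combination replicate 3 (0.134). Of the 12 genes named against valproic acid, 11 kept their call in every leave-one-out fit, and MNDA did not.

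**Figure D5:**
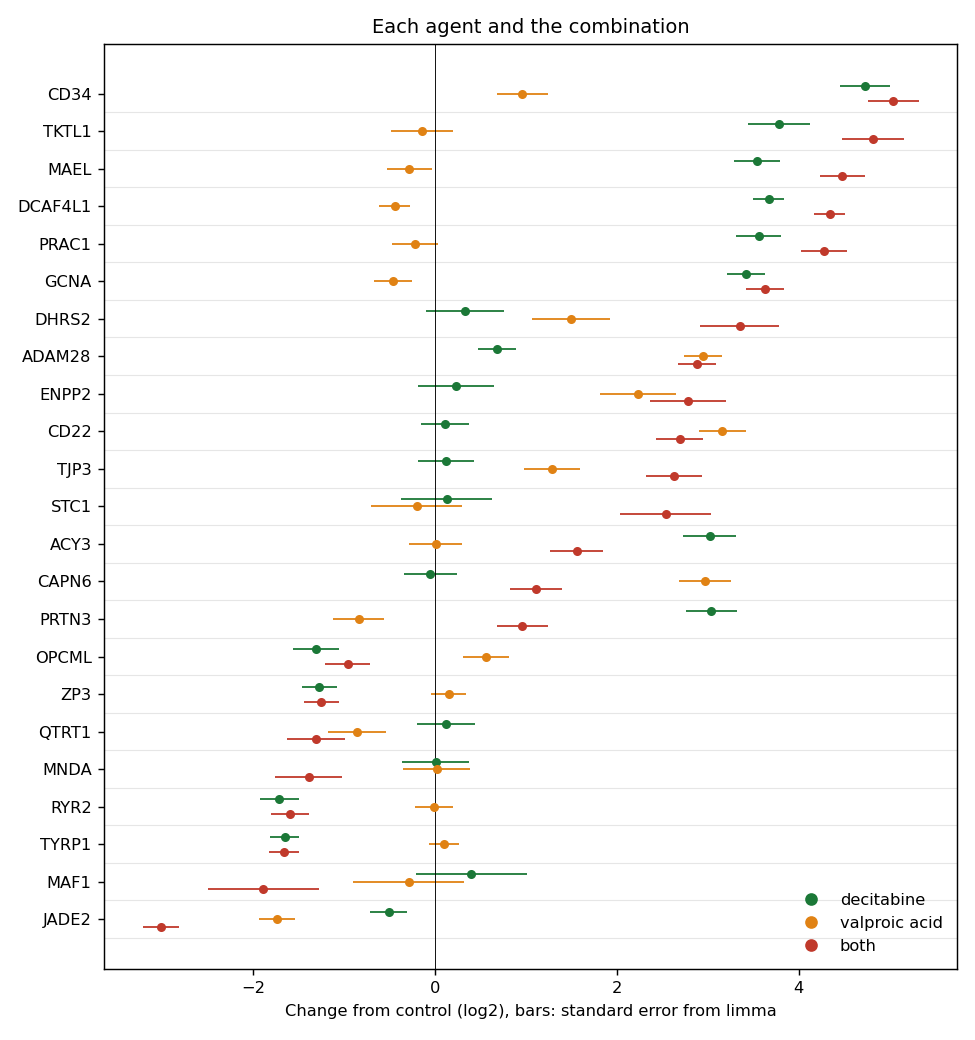
Change from control with decitabine (green), valproic acid (orange) and both (red) for the genes with the largest called differences between the combination and either agent. The horizontal axis is the log2 change and bars are standard errors from limma. For CD22 valproic acid and both lie together, for CD34 decitabine and both lie together, and for DHRS2 the change with both, 3.35, lies past those of the agents.

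Against decitabine with panobinostat, another deacetylase inhibitor whose dose cannot be set beside that of valproic acid, the combination differed in 97 genes (0.652%), 42 higher and 55 lower. At an unadjusted p under 0.05 there were 1772. In a fit of the 6 arrays 2 genes were called, and the count was 26 without combination replicate 1, 37 without combination replicate 2, and 29 and 53 without panobinostat combination replicate 1 or 3. CRLF2, a cytokine receptor subunit, was lower by 1.75 (SE 0.19, adjusted p 0.00123), at 4.97 against 6.72 with panobinostat and 5.81 in control. PMEL, a melanosome protein, was at 4.48 against 6.38, and the ribosomal protein MRPL2 of mitochondria at 9.32 against 8.48. These were the 3 of 12 named genes that kept the call over all leave-one-out fits, but in a fit of the 6 arrays alone only CRLF2 of the 12 was called (0.0203), with PMEL at 0.25 and MRPL2 at 0.215.

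The other genes named against the panobinostat combination lay between control and it. Complement C3 was at 3.74 in control, 5.85 with decitabine and valproic acid, and 7.51 with decitabine and panobinostat, the carbonic anhydrase CA6 at 3.76, 5.12 and 7.01, the chemokine receptor CCR7 at 3.57, 4.59 and 6.41, and IFI44L at 3.67, 5.20 and 6.67. In the downward direction, MTHFD1L was at 9.41, 7.76 and 6.72, CSF3R at 7.31, 6.55 and 5.45, NOL6, of ribosome biogenesis, at 7.96, 7.35 and 6.38, and WDFY4, a protein of antigen presentation, at 8.21, 7.03 and 6.18. PROS1, the anticoagulant protein S, was different: it was at 8.53 in control, 9.28 with decitabine and valproic acid, and 8.47 with decitabine and panobinostat. Without panobinostat combination replicate 1 the adjusted p was 0.0673 for CA6, 0.0856 for CCR7 and 0.0795 for IFI44L, and without its replicate 3 it was 0.0585 for C3. Without combination replicate 1 it was 0.123 for MTHFD1L, CSF3R and WDFY4, 0.128 for NOL6 and 0.141 for PROS1. Against control, CCR7 and PMEL were not called in 5 and NOL6 not in 3 of the 6 fits with an array left out, and the highest adjusted p was 0.209, 0.161 and 0.214.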

How the data were processed

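RNA of U937 cells was hybridised to Affymetrix HuGene arrays, 3 for each of 6 groups. The analysis used log2 values as deposited. RMA, which corrects background, normalizes by quantiles and summarises probes, is named in the submitters' processing notes, without a version. The number of arrays limits the precision. Changes near the background are compressed on this scale.

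Names came from the array's annotation, with symbols updated to RefSeq. The 32128 without a symbol are not in the comparisons. For 779 genes with several probe sets, the one with the highest mean stood for the gene. A model with 1 mean per group was fitted to all 18 arrays with limma 3.58.1 in R 4.3.3 (12 residual degrees of freedom, empirical Bayes), with Benjamini-Hochberg adjustment within a comparison. The code was tested on simulated data. Promoter windows are from RefSeq on GRCh38.p14, at the first start listed; the build behind the array annotation is not given in the sources used here.

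Named are the 12 largest rises and 12 largest falls among called protein-coding genes with separated arrays, up to 5 called members of each list, a panel of 17 genes, and for each further comparison the 6 largest differences either way among genes also called against control. The comparison, the lists and the rule were chosen with earlier results of these data known. Of 34 lists, 33 had a measured member, and the histone list had none. List counts and shares are over measured members, in many lists fewer than were written down, and do not describe whole families. Alternatives were a replicate block, only the 6 arrays compared, other scalings, a filter on low levels, other uses of probe sets, a trend in the spread, and leaving out each array.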

Additional observations from a re-analysis of the deposited data

Results flagged for a closer look

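Probe sets without a gene symbol, which no comparison above used, also differed between the combination and control. In a fit of all 48226 probe sets, 2675 of the 32128 unnamed ones were called (8.33%), 1357 higher and 1318 lower. Changes of at least 2-fold numbered 541 upward and 236 downward. Of the 16098 named probe sets 15.1% were called in the same fit. The arrays do not say what the unnamed probe sets measure, and they were not described further.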

How the results depend on the processing

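Against control, the count of 2524 genes ran from 1759 to 2547 with each array left out, and 1381 genes were called in all 6 of these fits; the 714 changes of at least 2-fold ran from 587 to 895. Other settings gave 1885 (the 6 arrays alone) to 3578 (arrays shifted to the same median) calls and 668 to 771 of at least 2-fold. The replicate block gave 2551 and 711 against control, 870 against decitabine, 593 against valproic acid and 118 against decitabine plus panobinostat. Same-numbered control and combination arrays deviated together at 0.01, -0.02 and -0.02, so the numbers were not taken as pairs. Against decitabine (913) leave-one-out counts ran from 360 to 1227, against valproic acid (600) from 371 to 565, and against decitabine plus panobinostat (97) from 26 to 109; in the 6 arrays alone they were 177, 261 and 2, where fewer arrays estimate the spread. Of the 150 named genes called against control, 110 kept the call with every one of the 6 arrays left out. The signs that turned were those of DNMT1 (0.03 with quantile normalization), DNMT3A (-0.12 to 0.49 with each array left out) and HDAC3 (-0.01 to 0.18 with each array left out, -0.09 with arrays shifted to the same median), none of them called in the comparison as reported. The other alternatives turned no named gene. Counts of list members under alternatives, and promoter shares over any listed start, were added after seeing the data. Weak signals limit what can be measured: of the 503 genes that rose at least 2-fold, 127 lay below the median of all values in control, where changes are compressed.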
